A study of Mus musculus with 17 samples.

Results

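The genes of the cytotoxic lymphocyte program were followed across single cells sorted from mouse skin and kidney. The set holds 9 genes, Gzma, Gzmb, Gzmk, Prf1, Nkg7, Ifng, Fasl, Klrg1 and Ccl5, taken by name out of 30406 genes that were listed in every library. All 17 libraries of the series were used, 8 from back skin and 9 from kidney. Every mouse carried PDGFRb-Cre and the Z/EG reporter, was 8 weeks old, and gave PDGFRb+GFP+ cells by flow sorting. SARAWT mice carried no further transgene, and SARATg mice carried a human ZFYVE9 (SARA) cDNA behind a lox-flanked stop in Rosa26, so that Cre turned it on in pericytes and, from embryonic life, in leukocytes. Lymphocytes of the SARATg mice therefore carried the transgene as well as the pericytes, and no group lacked Cre or the reporter. In skin there were 3 SARAWT PBS, 3 SARAWT bleomycin, 1 SARATg PBS and 1 SARATg bleomycin libraries, bleomycin being given subcutaneously at 20 mg/kg 3 times a week for 2 weeks by the labels. The study's methods give daily injections for skin instead. In kidney there were 3 SARAWT vehicle, 3 SARAWT aristolochic acid, 2 SARATg vehicle and 1 SARATg aristolochic acid libraries, the acid being given intraperitoneally at 5 mg/kg 3 times a week for 3 weeks. Bleomycin and aristolochic acid are the agents used to cause skin and kidney fibrosis.

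Cytotoxic lymphocytes store lytic proteins in granules and release them onto a bound target cell. Perforin (Prf1) opens the membrane of the target, granzyme A (Gzma) and granzyme B (Gzmb) are serine proteases that enter and kill it, and granzyme K (Gzmk) is a related protease typical of memory-like T cells. Nkg7 is a membrane protein of the granule that takes part in its release. Fas ligand (Fasl) kills by a separate route, through the death receptor Fas. Interferon gamma (Ifng) and the chemokine CCL5 (Ccl5) are secreted products of activated killer cells, and Klrg1 is an inhibitory receptor of mature NK and effector T cells that binds cadherins. NK cells carry many of these products ready made, CD8 T cells acquire them on activation, and the T-box factors Eomes and T-bet and the factor Runx3 drive much of the program.

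The gene set lies on 7 chromosomes of the mm10 genome (GRCm38). Gzma (chr13:113093825-113100981, minus strand) and Gzmk (chr13:113171608-113225908, minus strand) are neighbours on chromosome 13. Gzmb lies at chr14:56258838-56262260, Nkg7 at chr7:43437073-43438249, Fasl at chr1:161780689-161788495, Klrg1 at chr6:122270596-122282882 and Ccl5 at chr11:83525778-83530518. Prf1 (chr10:61297833-61304680) and Ifng (chr10:118441046-118445892) share chromosome 10. Promoter sequence was at hand for 7 of the 9 genes, from RefSeq on GRCm38.p6, and those of the granzymes and perforin are shown because they encode the lytic proteins of the granule. Each is 240 bases long, reads 5′ to 3′ on the strand of the gene and stops 10 bases short of the RefSeq start. Capitals mark matches to the letters searched, TGTGGT or ACCACA (RUNX), TCACAC or GTGTGA (T-box) and TGACTCA or TGAGTCA (AP-1), on both strands.
Gzma, chr13:113100992-113101231, minus strand: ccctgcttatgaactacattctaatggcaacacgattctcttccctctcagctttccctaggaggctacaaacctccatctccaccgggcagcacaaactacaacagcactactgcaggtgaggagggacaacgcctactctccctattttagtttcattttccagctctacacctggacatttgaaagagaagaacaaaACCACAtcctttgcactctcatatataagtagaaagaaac
Gzmb, chr14:56262345-56262584, minus strand: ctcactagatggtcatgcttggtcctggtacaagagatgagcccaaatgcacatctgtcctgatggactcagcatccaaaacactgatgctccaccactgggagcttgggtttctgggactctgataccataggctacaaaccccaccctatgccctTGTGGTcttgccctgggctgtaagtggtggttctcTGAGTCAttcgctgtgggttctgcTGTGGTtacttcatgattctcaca
Gzmk, chr13:113180976-113181215, minus strand: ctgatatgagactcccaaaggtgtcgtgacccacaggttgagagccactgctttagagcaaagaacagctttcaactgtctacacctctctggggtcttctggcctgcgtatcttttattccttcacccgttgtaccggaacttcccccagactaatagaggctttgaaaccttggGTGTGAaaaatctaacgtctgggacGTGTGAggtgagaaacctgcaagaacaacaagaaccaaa
Prf1, chr10:61297586-61297825, plus strand: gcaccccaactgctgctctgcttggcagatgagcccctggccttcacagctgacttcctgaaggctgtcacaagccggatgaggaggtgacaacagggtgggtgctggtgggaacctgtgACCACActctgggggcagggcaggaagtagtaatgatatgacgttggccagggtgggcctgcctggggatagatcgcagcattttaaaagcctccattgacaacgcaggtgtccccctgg
Gzma held 1 RUNX match that began 50 bases before the start, and Prf1 held 1 at 130 bases. Gzmb held 2 RUNX matches, at 93 and 34 bases, and 1 AP-1 match at 58 bases between them. Gzmk held no RUNX match and 2 T-box matches, at 74 and 49 bases, and its RefSeq start lies inside the longer gene span given above. Nkg7 held 1 RUNX match at 83 bases, and no match of the 3 kinds was found in the Ifng and Fasl windows. Among 32851 promoters cut to the same window, 13.6% held a RUNX match, 11.9% a T-box match and 4.35% an AP-1 match. Short matches such as these were thus also found in many promoters outside the set, AP-1 matches in the fewest. A match describes the letters and is not a measured binding site.

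After filtering, 28978 skin cells and 58140 kidney cells were kept, with 776 to 9248 cells and a median of 1264 to 11056 UMIs per cell in a library. By marker gates that used no gene of the set, 2767 skin and 15019 kidney cells were T cells, and 217 and 722 were NK cells, out of 19031 and 29067 leukocytes. Of the sorted cells only 2624 in skin and 89 in kidney passed a gate of stromal markers, and 20497 kidney cells passed a gate of tubule markers, so the sort did not hold pericytes alone. Between 2.29% and 56.2% of the barcodes of a library also occurred in another one, the highest share being in skin SARAWT PBS 2. Expression of the targeted gene went against some labels. The library labelled skin SARAWT PBS 3 held 615 CPM of Zfyve9, above the 314 and 222 CPM of the skin libraries labelled SARATg, and the library labelled skin SARAWT PBS 1 held 840 CPM of human ZFYVE9. The 3 other libraries counted on a list with that gene, SARAWT PBS 2 and SARAWT bleomycin 1 and 2, held 86.9 to 189 CPM of it although SARAWT mice should have none, and 7.74 to 12.0 CPM of Zfyve9, so their labels cannot be checked by it either. The library labelled kidney SARAWT aristolochic acid 1 held 160 CPM of Zfyve9 and the one labelled SARATg aristolochic acid 1 held 19.6 CPM, where the kidney libraries labelled SARATg vehicle held 99.1 and 94.1 CPM. Groups are named by their labels throughout, and the tissue comparisons are also given without the libraries labelled skin SARAWT PBS 1 and 3, kidney SARAWT aristolochic acid 1 and kidney SARATg aristolochic acid 1, the 4 whose levels departed most from their labels. The kidney comparison with aristolochic acid called 0 genes of the set in all cells, T cells and NK cells without the library labelled SARAWT aristolochic acid 1. Among the skin SARAWT PBS libraries, the one labelled 3 alone had at least 10 NK cells. The skin libraries were counted with other versions of Cell Ranger than the kidney libraries, so that tissue and counting version cannot be told apart. The labels number the libraries of a group but name no animals, so the p-values measure the spread between libraries.

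NK cells held the highest levels of most of the set in both tissues. Levels are given as CPM, the UMIs of a gene per 1000000 UMIs of the same cells in a library. In kidney NK cells the median of 9 libraries was 14789 CPM for Gzma (7708 to 20293), 1262 CPM for Prf1 (644 to 1454) and 3263 CPM for Nkg7 (2649 to 4754). CD8 T cells came next, with 868 CPM for Gzma (182 to 2680), 67.3 CPM for Prf1 (44.1 to 102) and 1704 CPM for Nkg7 (982 to 2369). For these genes and for Fasl the ranges of kidney NK and CD8 T cells did not overlap, whereas for Gzmb and Ccl5 they did. Gzmb was 1037 CPM in kidney NK cells (392 to 2008) and 206 CPM in CD8 T cells (103 to 421). Ccl5 was 16934 CPM in NK cells (11193 to 30212) and 9563 CPM in CD8 T cells (5641 to 16841). Within every one of the 9 kidney libraries and the 5 skin libraries with at least 10 NK cells, Gzma, Gzmb, Prf1, Nkg7, Fasl and Ccl5 were higher in NK cells than in T cells. The share of all genes that were higher in NK cells in every library was not counted.

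Gzmk had the opposite pattern in kidney. It was higher in T cells than in NK cells in 9 of 9 kidney libraries, with medians of 144 CPM in CD8 T cells (45.2 to 316), 60.5 CPM in T cells with neither CD4 nor CD8 transcripts or with both (1.84 to 265), 44.6 CPM in CD4 T cells (0 to 297) and 6.64 CPM in NK cells (0 to 31.4). The ranges of the T cell types overlapped, so their order is not separated by the libraries. T cells held 80.7% of all Gzmk UMIs in kidney. Ifng ranges overlapped between the lymphocyte types there, from a median of 73.5 CPM in NK cells (17.5 to 189) to 29.3 CPM in CD8 T cells (21.8 to 79.0), and it was higher in CD8 than in CD4 T cells in 3 of 9 libraries. Klrg1 was 134 CPM in kidney NK cells (0 to 257) and 23.2 CPM in CD8 T cells (19.1 to 64.3), and in skin its medians of 48.7 CPM in CD4 T cells, 35.9 CPM in NK cells and 30.4 CPM in type 2 innate lymphoid cells came with overlapping ranges.

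The share of cells with a UMI followed the levels. To compare cells of unequal depth, each was thinned to 1000 UMIs, which left out 13 of 722 kidney and 4 of 217 skin NK cells. In kidney NK cells (median depth 2766 UMIs) 87.2% had Gzma, 62.6% Prf1, 48.9% Gzmb and 96.3% Ccl5, against 88.8%, 81.4%, 65.9% and 97.2% without thinning. In kidney tubule cells (median 9498 UMIs), which should lack these genes, the thinned shares were 0.0737% for Gzma, 0.00491% for Prf1, 0.0196% for Gzmb and 0.653% for Ccl5. Skin NK cells (median 6556 UMIs) had Gzma in 60.1%, Gzmb in 25.4%, Fasl in 24.4% and Prf1 in 11.3% of cells, where skin stromal cells (median 5358 UMIs) had them in 0.0941%, 0.0941%, 0% and 0%, the last allowing up to 0.141%. Prf1 was seen in few of the skin NK cells and in most of the kidney ones at this depth.

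**Figure D1:**
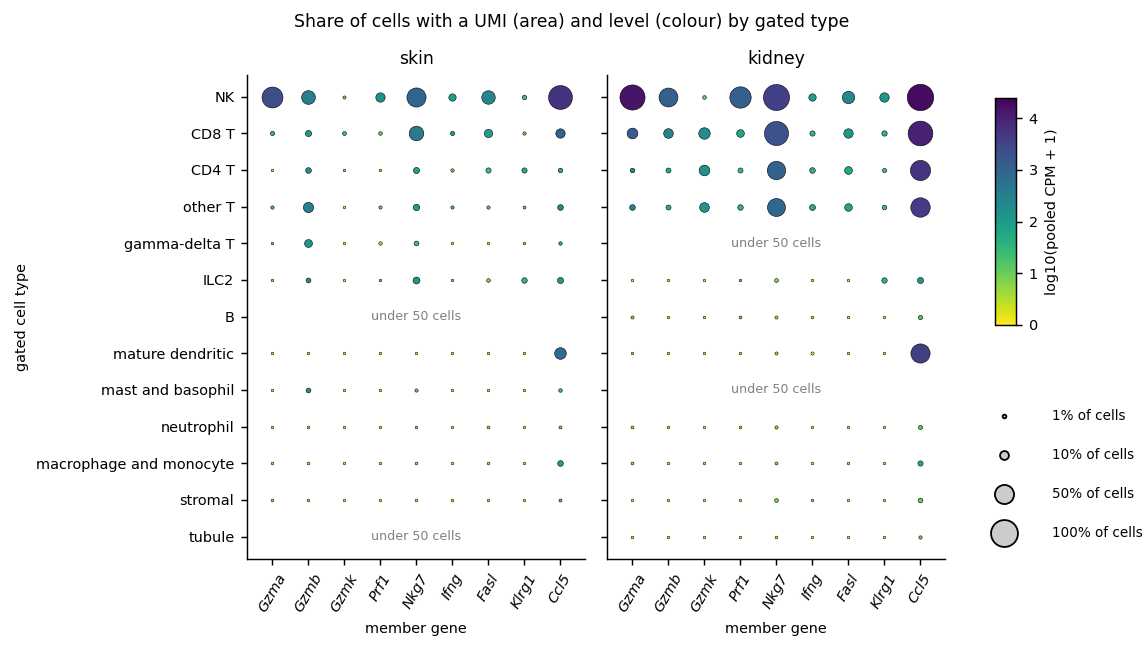
Dot plot of the 9 genes (columns) in each gated cell type of skin and kidney (rows). Dot area is the percent of cells with a UMI after thinning to 1000 UMIs and colour is the log10 of pooled CPM + 1. The largest dots are those of Ccl5, Nkg7 and Gzma in kidney NK cells, at 96.3%, 93.8% and 87.2%. Skin T cells outside the CD8, CD4 and gamma-delta gates show Gzmb at 13.8%, and their median level over libraries was 143 CPM for Gzmb and 443 CPM for Ccl5.

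The share of Prf1 cells that also had a granzyme differed between cell types, as did the share of all cells with a granzyme. Of the thinned cells with a Prf1 UMI, 426 of 444 kidney NK cells (95.9%) also had Gzma, Gzmb or Gzmk, and so did 19 of 24 skin NK cells (79.2%). In kidney CD8 T cells 222 of 474 Prf1 cells (46.8%) had any of these granzymes. In skin T cells outside the CD4, CD8 and gamma-delta gates, none of the 11 Prf1 cells had one. Among all thinned cells, Gzma or Gzmb was found in 87.7% of kidney NK, 64.3% of skin NK and 21.4% of kidney CD8 T cells. In those skin T cells it was 14.1%. Whether Prf1 and granzymes met more often than these shares give was not tested. Without thinning, 542 of those 2012 skin T cells had Gzmb alone, 17 had Gzma and Gzmb, and 3 had Gzma alone.

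Some of the other gated types held single genes of the set. Mature dendritic cells held Ccl5 at a median of 448 CPM in skin (125 to 1296, 8 libraries) and 3846 CPM in kidney (2428 to 5077, 4 libraries), and 17.9% and 50.4% of them had a thinned UMI. Mast cells and basophils of skin held 129 UMIs of Gzmb in 11 of 571 cells, and 93 of the UMIs lay in 3 cells of the library labelled SARAWT PBS 3, so the level there rests on few cells. T and NK cells together held 60.8% of the Gzma and 60.7% of the Gzmb UMIs of skin, and 28.7% of its Gzmk UMIs and 30.6% of its Ccl5 UMIs. Part of the rest lay in cells with mixed markers, and in the library labelled skin SARAWT PBS 3, 8 cells that passed no gate held 530 UMIs of Gzmb.

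Skin T cells were lower than kidney T cells in most of the set. The comparison set the 3 skin SARAWT PBS libraries against the 3 kidney SARAWT vehicle libraries and asked how the same genes differ between the untreated tissues. With edgeR's quasi-likelihood test on UMIs summed over the T cells of each library, 6 of 9 genes were lower in skin and 0 higher, where 18.4% of the 7651 genes tested were lower. Gzmk, which is 1 of the 6, reached the low-count minimum of the test in kidney libraries alone and so had to differ, and Gzma and Prf1 reached it in 1 of 3 skin libraries. The median log2 fold change was -2.62 for the set and -0.08 for all genes.

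Ccl5 had UMIs in the T cells of every library. It was 421, 267 and 393 CPM in skin SARAWT PBS 1, 2 and 3 and 9725, 3079 and 7531 CPM in kidney SARAWT vehicle 1, 2 and 3. Every kidney value was above every skin value, and the fitted difference was -4.08 on the log2 scale (SE 0.48, edgeR adjusted p = 1.7e-05), or 17-fold. Nkg7 was 231, 287 and 163 CPM in skin and 1556, 994 and 1765 CPM in kidney, again without overlap, a log2 difference of -2.68 (SE 0.35, edgeR adjusted p = 4.2e-05).

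Of the granule proteases, Gzma was 0, 0 and 44.8 CPM in the skin libraries and 397, 367 and 368 CPM in the kidney ones, a log2 difference of -3.76 (SE 0.70, edgeR adjusted p = 0.000846). With a stricter gate this was -2.63 (edgeR adjusted p = 0.0793), DESeq2 gave -4.47 with no adjusted p, and leaving out single libraries gave -12.8, without the library labelled SARAWT PBS 3 that held the only skin UMIs, to -3.11, without the one labelled SARAWT PBS 1. The skin level came from the library labelled SARAWT PBS 3 alone, whose Gzma UMIs lay in Trdc-positive T cells at 67.9 CPM and in the other T cells at 1.73 CPM. Gzmk had no UMI in the T cells of any skin PBS library and 172, 30.5 and 235 CPM in kidney. Against 3 counts over the skin group this is at least 202-fold lower in skin. Gzmb was the granzyme whose tissues overlapped, with 16, 20.5 and 118 CPM in skin and 238, 56.7 and 169 CPM in kidney, a log2 difference of -1.08 (SE 0.61, edgeR adjusted p = 0.18).

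Prf1 was 6.14, 0 and 11.8 CPM in skin and 99.0, 36.4 and 67.1 CPM in kidney, a log2 difference of -2.62 (SE 0.48, edgeR adjusted p = 0.000814). Fasl, the ligand of the other killing route, was 14.7, 0 and 19.4 CPM in skin and 110, 101 and 104 CPM in kidney, a log2 difference of -2.46 (SE 0.38, edgeR adjusted p = 0.000186). Neither gene overlapped between the tissues. Ifng and Klrg1 did not pass the test. Ifng was 222, 0 and 37.2 CPM in skin and 145, 103 and 29.5 CPM in kidney, with a log2 difference of 0.46 (SE 0.66, edgeR adjusted p = 0.62). Klrg1 was 12.3, 20.5 and 24.5 CPM in skin and 25.1, 41.5 and 23.9 CPM in kidney, with a log2 difference of -0.42 (SE 0.40, edgeR adjusted p = 0.44).

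Leaving out the library labelled skin SARAWT PBS 1, 2 or 3 gave 6, 6 and 7 genes lower, where 11.9%, 17.5% and 7.86% of all genes were. Without kidney SARAWT vehicle 1, 2 or 3 the counts were 6, 7 and 6, where 13.7%, 15.2% and 14.7% of all genes were lower. Each of these counts includes Gzmk, which had no UMI in skin and so had to differ. The count without the library labelled SARAWT PBS 3 also includes Gzma, which then had no skin UMI either. Skin SARAWT PBS 2 held 10 T cells, so that 1 UMI there was 20.5 CPM. A fit across all 17 libraries had treatment and transgene as terms, with bleomycin and aristolochic acid sharing the treatment term. In it 6 genes were lower in skin T cells, where 36.9% of the genes tested were. Gzmb had a log2 difference of 0.37 (SE 0.42, edgeR adjusted p = 0.45). Without the 4 libraries with discordant Zfyve9 levels, 7 of 9 genes were lower in skin T cells, where 30.6% of 10353 genes were. The added gene was Ifng, with a log2 difference of -1.51 (SE 0.44, edgeR adjusted p = 0.00825) that had the other sign in the control groups, and Gzmb differed by 0.60 (SE 0.58, edgeR adjusted p = 0.40).

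**Figure D2:**
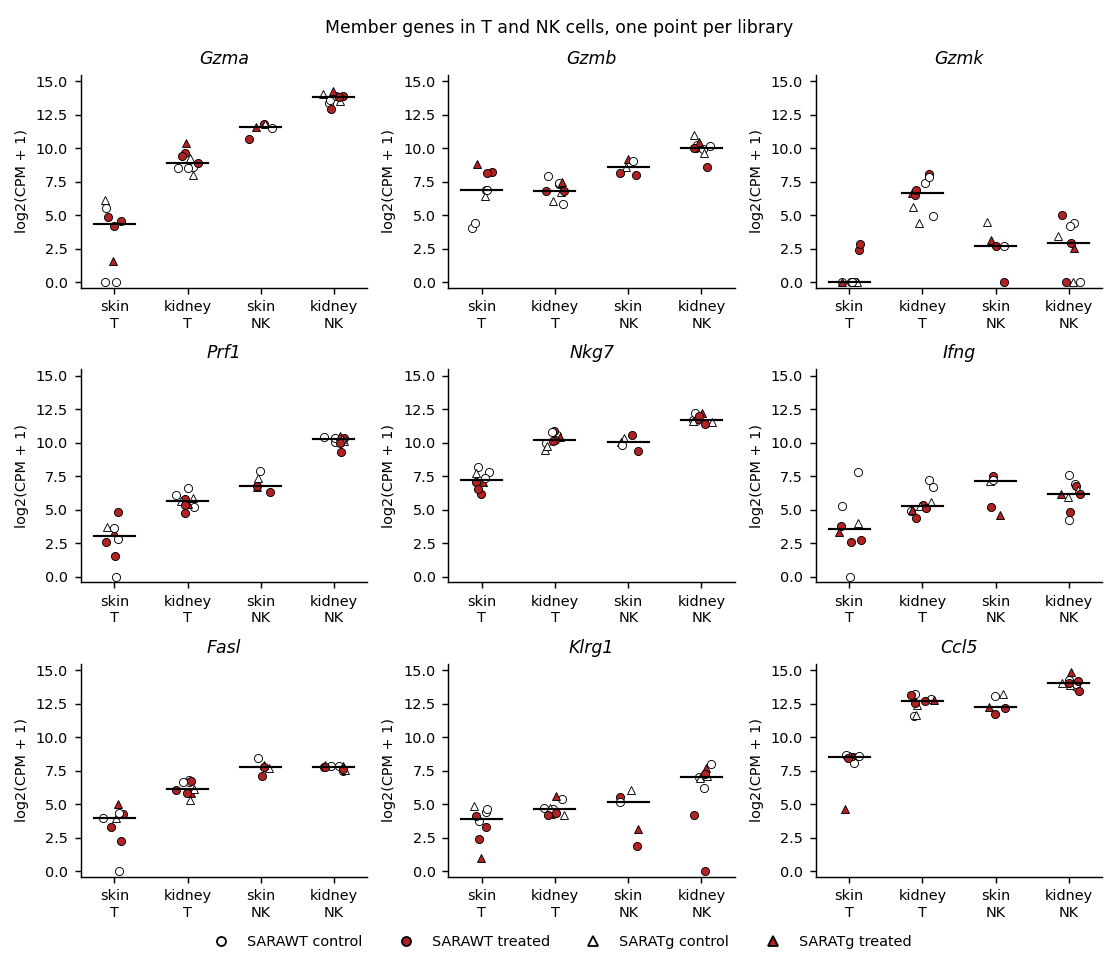
Levels of the 9 genes in each library, as log2(CPM + 1), in T cells and NK cells of skin and kidney. White points are control and red points treated libraries, circles SARAWT and triangles SARATg, and the bar is the median. Every kidney T cell point lies above every skin T cell point for Gzma, Gzmk, Nkg7, Fasl and Ccl5, whereas the Gzmb points of both tissues overlap. How many of all genes separate in this way was not counted, and 36.9% of the genes tested were lower in skin T cells over all 17 libraries.

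The T cells of the tissues differed in kind. Trdc, the constant gene of the gamma-delta receptor, was found in 33.9% to 79.4% of skin T cells and in 1.05% to 7.45% of kidney T cells. Among skin T cells outside the CD8, CD4 and gamma-delta gates, 71.9% had Trdc, 53.1% Cd163l1 and 42.1% Il17a, which mark gamma-delta T cells that make IL-17, so the gamma-delta gate took only part of the Trdc-positive cells. CD8 T cells made up 0.735% to 27.8% of skin T cells and 21.1% to 56.7% of kidney T cells. The part of the CD8 share in the tissue difference was not tested. In T cells without a Trdc UMI, of which SARAWT PBS 2 held too few to enter the fit, the 2 other skin PBS libraries were set against 3 kidney vehicle libraries. There 6 of 9 genes were lower in skin, where 12.3% of 8634 genes were. Gzma and Gzmk are 2 of the 6, and both reached the low-count minimum in kidney libraries alone and so had to differ. Ccl5 differed by -3.89 (SE 0.53, edgeR adjusted p = 0.000883), Nkg7 by -2.15 (SE 0.37, edgeR adjusted p = 0.00287), Fasl by -1.73 (SE 0.33, edgeR adjusted p = 0.00465) and Prf1 by -1.59 (SE 0.48, edgeR adjusted p = 0.0357) on the log2 scale. Gzma was 0 and 1.73 CPM in those cells of SARAWT PBS 1 and 3 and 253, 338 and 354 CPM in those of kidney. Ifng differed by 1.66 (SE 0.65, edgeR adjusted p = 0.084), with a mean that the library labelled SARAWT PBS 1 set at 407 CPM, against 78.1 CPM in SARAWT PBS 3.

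Within skin, Gzmb and the other genes divided between Trdc-positive and Trdc-negative T cells. Gzmb was higher in the Trdc-positive cells in 7 of the 7 libraries with at least 10 cells of each kind, with medians of 150 CPM and 77.9 CPM. The widest gap was in SARATg bleomycin 1, at 797 against 109 CPM, and the narrowest ratio was in SARATg PBS 1, at 103 against 77.9 CPM. Gzma was higher in the Trdc-positive cells in 5 libraries and lower in 1, with medians of 19.0 and 1.18 CPM, and Prf1 was higher there in 4 and lower in 3. Ifng and Klrg1 were higher in the Trdc-negative cells in 7 of 7 libraries, Nkg7 and Fasl in 6 of 7, Ccl5 in 5 of 7 and Gzmk in 2 of 7. In kidney Gzma and Prf1 were higher in the Trdc-positive cells in 8 of 9 libraries, but Gzmb in 4 of 9. Gzmk was higher in the Trdc-negative cells in 9 of 9. These counts describe the libraries, and no test was run on them.

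**Figure D3:**
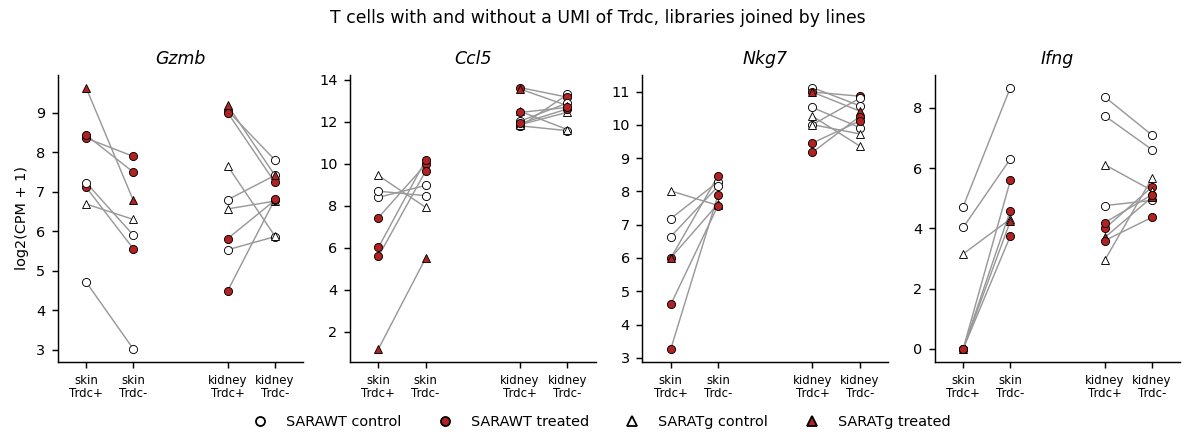
Levels of Gzmb, Ccl5, Nkg7 and Ifng in T cells with and without a Trdc UMI, with a line joining the cells of 1 library. In skin each Gzmb line is higher on the Trdc-positive side and each Ifng line is higher on the Trdc-negative side, in 7 of 7 libraries.

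Skin CD8 T cells were few and uneven. Only 3 skin libraries held at least 10 of them, and none of those was a control library. Ccl5 was 8295 CPM in the 10 CD8 T cells of SARAWT bleomycin 2, 2437 CPM in the 85 of SARAWT bleomycin 3 and 53.5 CPM in the 209 of SARATg bleomycin 1. Gzma followed the same order in these libraries, at 606, 32.5 and 0 CPM, whereas Fasl was 52.7, 83.7 and 90.0 CPM. Over all T cells too, SARATg bleomycin 1 held the lowest Ccl5 of the 8 skin libraries, at 23.7 CPM where the others held 267 to 421 CPM. With 1 such library there is no test of that difference. Across all kidney libraries CD8 T cells held 5641 to 16841 CPM of Ccl5.

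Skin NK cells were lower than kidney NK cells in most of the set when all libraries were used. The comparison took the 5 skin and 9 kidney libraries with at least 10 NK cells. Treatment and transgene were terms of the fit, with bleomycin and aristolochic acid sharing the treatment term. Of 8 genes 6 were lower in skin, where 30.6% of 3541 genes were. Prf1 ranged from 81.4 to 243 CPM in skin and from 644 to 1454 CPM in kidney without overlap, a log2 difference of -2.98 (SE 0.24, edgeR adjusted p = 1.58e-08). Gzma differed by -2.21 (SE 0.24, edgeR adjusted p = 4.69e-07), from 1638 to 3646 CPM in skin and 7708 to 20293 CPM in kidney. Nkg7 (-1.71), Ccl5 (-1.51), Gzmb (-1.37) and Klrg1 (-2.14) were also lower. Fasl did not pass this test, with 136 to 350 CPM in skin and 175 to 244 CPM in kidney and a log2 difference of 0.17 (SE 0.18, edgeR adjusted p = 0.42). Ifng had a log2 difference of 0.21 (SE 0.43, edgeR adjusted p = 0.69). Without the 4 libraries with discordant Zfyve9 levels, 4 skin and 7 kidney libraries gave 5 of 8 genes lower, where 17.3% of 3551 genes were. Prf1 differed by -2.95 (SE 0.25, edgeR adjusted p = 9.78e-07) and Gzma by -2.01 (SE 0.31, edgeR adjusted p = 0.000236), whereas Klrg1 did not pass (-1.71, SE 0.93, edgeR adjusted p = 0.16).

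Control NK cells of skin came from few cells. The library labelled SARAWT PBS 3 held 59, SARATg PBS 1 held 14, and SARAWT PBS 1 and 2 held 5 and 1. Prf1 was 243 CPM in SARAWT PBS 3 and 163 CPM in SARATg PBS 1, where kidney SARAWT vehicle 1, 2 and 3 held 1357, 1069 and 1318 CPM. Nkg7 was 919 and 1324 CPM in these skin libraries and 3263, 3247 and 4746 CPM in kidney, and Gzma was 2979 and 3646 CPM against 10641, 12448 and 15008 CPM. Both skin values lay below every kidney value for these 3 genes, which were not set against a share of all genes. Within SARAWT the skin arm was 1 library and has no spread of its own. A fit that lends it the spread of the kidney libraries put 2 of 8 genes lower, where 6.54% of 4007 genes were lower, and with called doublets kept it put 0 lower, so nothing is read from it. Several NK receptors that the gate itself uses were lower too in SARAWT PBS 3, with 44.1 CPM of Klrb1c and 77.2 CPM of Ncr1 against at least 683 and 647 CPM in the kidney vehicle libraries. The part of the gate in these differences was not tested, since the SARAWT skin arm was 1 library under the stricter gate too.

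**Figure D4:**
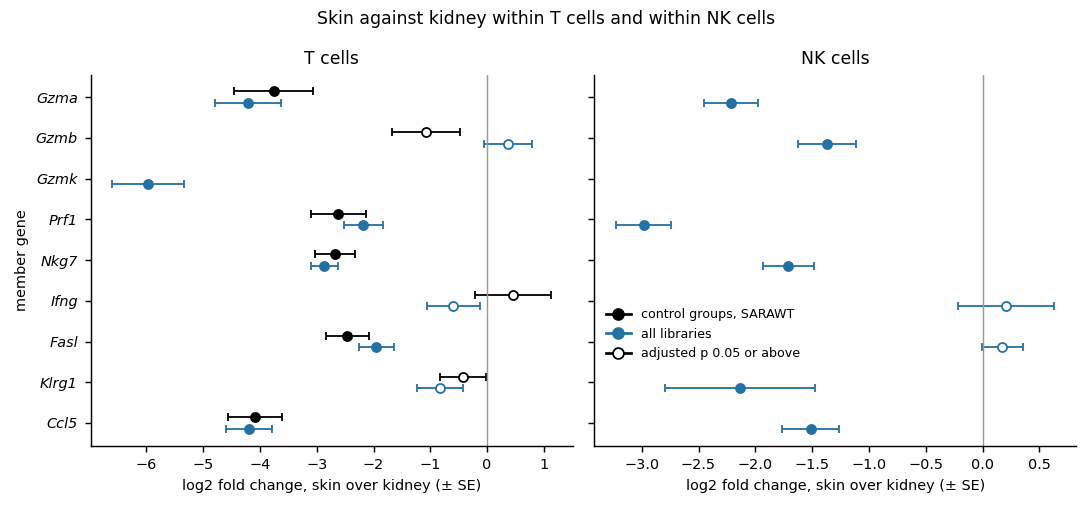
Log2 fold change of skin over kidney for each gene in T cells and NK cells, with bars of 1 standard error. Black points are the control groups, shown for T cells and for genes with a UMI in both groups, blue points all libraries with at least 10 of the cells, and open points have an edgeR adjusted p of at least 0.05. Gzma, Prf1, Nkg7 and Ccl5 lie below 0 wherever they are shown, and Fasl lies below 0 in T cells and above 0 in NK cells.

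Over all sorted cells of a library, the level of the set depends on how many lymphocytes were sorted, and fewer cells of a type and less RNA per cell cannot be told apart. Of 9 genes edgeR called 1 lower in skin than in kidney controls, Gzmk, where 23.5% of 16528 genes were lower. Gzmk was 0, 0.931 and 0.0638 CPM in skin, from 6 UMIs in all, and 1.89, 0.596 and 57.0 CPM in kidney, so the tissues overlapped. It reached the low-count minimum of the test in 1 of 3 skin libraries and in every kidney library, so it entered the test largely through kidney. DESeq2 called 0 of the 9, where 26.5% of genes were lower, and leaving out single libraries gave 0 to 2, where 8.02% to 30.3% were. The median of the set was -2.29, against -0.20 for all genes, and without kidney SARAWT vehicle 3 it was -0.04, so the shift of the set rests on that library. T cells were 3.94%, 2.87% and 15.8% of leukocytes in skin SARAWT PBS 1, 2 and 3 and 27.5%, 27.1% and 61.3% in kidney SARAWT vehicle 1, 2 and 3. The groups did not overlap, but 3 libraries against 3 cannot give a two-sided exact permutation p below 0.1, which is the p found (0.16 adjusted over 8 lymphocyte types). The difference of the means was -31.1 percentage points and -19.8 without kidney SARAWT vehicle 3. NK cells were 0.197%, 0.287% and 2.08% of leukocytes in skin and 6.14%, 3.09% and 1.2% in kidney, which overlapped (exact permutation p = 0.2).

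With leukocytes alone 8 of 9 genes were lower in skin, all but Gzmb, where 21.5% of 13167 genes were lower. Gzmk is 1 of the 8 and reached the minimum in kidney libraries alone, so it had to differ, and Prf1 reached it in 1 of 3 skin libraries. Nkg7 differed by -4.22 (SE 0.57, edgeR adjusted p = 0.00184), Prf1 by -3.95 (SE 0.87, edgeR adjusted p = 0.0101) and Gzmb by -2.18 (SE 1.0, edgeR adjusted p = 0.12) on the log2 scale. Over all 17 libraries and all cells the same count was 8, where 34.4% of 18100 genes were lower, with Gzmb again the gene that did not pass (log2 difference -0.46, SE 0.57, edgeR adjusted p = 0.49). It was also 8 without the 4 libraries with discordant Zfyve9 levels, where 29.5% of 17531 genes were lower.

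The comparison of bleomycin with PBS skin asks how these genes differ with the fibrosis agent. The PBS libraries labelled SARAWT PBS 1 and 3 are among those whose Zfyve9 or human ZFYVE9 levels departed most from their labels. SARAWT bleomycin 1 and 2 also held human ZFYVE9, at 86.9 and 112 CPM, and SARAWT PBS 2 held 189 CPM. The labels of these libraries cannot be checked by it either. Treatment and a transgene in the libraries labelled SARAWT PBS 1 and 3 therefore cannot be told apart here. Without both, SARAWT PBS 2 alone would remain, so the comparison was not repeated without them. Over all cells 0 of 9 genes passed edgeR's test, and 0% of 15270 genes were called in either direction. An unadjusted edgeR p under 0.05 was found for 1 of the 9 and for 2812 of the 15270. DESeq2 called 0 of the 9 too, where it called 8.77% of all genes. Samples with the same number deviated together here, but so did the unlike numbers 1 and 2 (r of 0.221 and 0.197). With the replicate number as a block 203 genes were higher and 476 lower out of 15878 (4.28%), with 0 of the 9 among them. Ccl5 was 62.3, 136 and 227 CPM in SARAWT PBS 1, 2 and 3 and 117, 257 and 283 CPM in SARAWT bleomycin 1, 2 and 3, higher in each bleomycin library than in the PBS library of the same number. Its blocked log2 difference was 0.86 (SE 0.20, edgeR adjusted p = 0.0761). Without the library labelled skin SARAWT PBS 3, 1 gene passed, Prf1 with a log2 difference of 2.95 (edgeR adjusted p = 0.0287), where 6.62% of 15368 genes did.

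In skin T cells, 0 of 7 genes tested passed between bleomycin and PBS without the replicate block, where 0.0647% of 7724 genes were called. An unadjusted edgeR p under 0.05 was found for 3 of the 7 and for 434 of the 7724. DESeq2 called 0 of them and 0.142% of all genes. With the block 3 of 8 genes passed, where 2.06% of 8298 genes were called in either direction. Gzmb was higher with bleomycin by 2.08 (SE 0.29, edgeR adjusted p = 2.95e-09), and Ifng and Nkg7 were lower, with log2 differences of -3.15 (SE 0.36, edgeR adjusted p = 2.26e-13) and -0.90 (SE 0.25, edgeR adjusted p = 0.0266). The block leaves few degrees of freedom per gene, so these p-values draw mostly on the spread shared over all genes. Ifng was not lower in every pair, since number 2 held 0 CPM with PBS and 13 CPM with bleomycin. Same-numbered libraries deviated together with r of 0.111, 0.043 and 0.269 in T cells, and the unlike numbers 1 and 2 with 0.039 and 0.060. The pairing was thus weak there for numbers 1 and 2. Gzmb was 16, 20.5 and 118 CPM in SARAWT PBS 1, 2 and 3 and 116, 303 and 278 CPM in SARAWT bleomycin 1, 2 and 3, an unblocked log2 difference of 1.92 (SE 0.59, edgeR adjusted p = 0.53). The groups overlapped only by the library labelled SARAWT PBS 3, which lay just above the lowest bleomycin library. Within the libraries counted with Cell Ranger 4.0.0 the values were 16 and 20.5 against 116 and 303 CPM, and within those counted with version 3.1.0 they were 118 against 278 CPM. Ifng was 222, 0 and 37.2 CPM in PBS and 5.66, 13 and 5.11 CPM in bleomycin, a log2 difference of -3.67 (SE 0.74, edgeR adjusted p = 0.19). Its level in PBS came mostly from the library labelled SARAWT PBS 1. Nkg7 was 231, 287 and 163 CPM in PBS and 134, 71.2 and 91.7 CPM in bleomycin without overlap, a log2 difference of -0.95 (SE 0.29, edgeR adjusted p = 0.54). The share of T cells with Trdc was 48.0%, 50% and 65.2% in PBS and 79.4%, 73.1% and 61.0% in bleomycin, which overlapped, number 3 being lower in bleomycin. Its part in these values was not tested beyond leaving those cells out. Without them, in 3 bleomycin and 2 PBS libraries, Nkg7 differed by -0.16 (SE 0.32, edgeR adjusted p = 0.997), Gzmb by 2.12 (SE 0.71, edgeR adjusted p = 0.64), Ccl5 by 1.27 (SE 0.27, edgeR adjusted p = 0.36) and Ifng by -3.16 (SE 0.74, edgeR adjusted p = 0.43). With the gene list as a covariate Gzmb (2.35) and Ifng (-3.45) passed, where 1.04% of 8298 genes did.

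T cells were 3.94%, 2.87% and 15.8% of skin leukocytes with PBS and 9.07%, 15.9% and 19.8% with bleomycin (exact permutation p = 0.2, with 0.1 the smallest possible). The SARATg libraries, with 1 in each arm, held 7.42% with PBS and 21.7% with bleomycin. In skin NK cells there were 2 bleomycin libraries against 1 PBS library, which has no spread of its own, so levels alone are given. Prf1 was 81.4 and 109 CPM with bleomycin and 243 CPM with PBS, and Ccl5 was 3428 and 4650 CPM against 8601 CPM. Among 11 other granule and killing genes, the chemokine gene Ccl4 was picked for its large fold, at 127 and 129 CPM against 1087 CPM. The median log2 fold change of the 11 was 0.27 for bleomycin over PBS, so Ccl4 does not stand for them. The PBS library was the one labelled SARAWT PBS 3, so treatment and library cannot be told apart in these values.

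The comparison of aristolochic acid with vehicle kidney asks the same of the agent of kidney fibrosis. Over all cells 0 of 9 genes passed edgeR's test, and 0% of 15742 genes were called. An unadjusted edgeR p under 0.05 was found for 2 of the 9 and for 1452 of the 15742. DESeq2 called 0 of 9, and 0.438% of all genes. The vehicle group was not uniform. Ccl5 was 126, 88.9 and 2094 CPM in SARAWT vehicle 1, 2 and 3 and 3014, 2412 and 3437 CPM in SARAWT aristolochic acid 1, 2 and 3, so vehicle 3 lay with the treated libraries. It held 2969 T cells of 4843 leukocytes, where vehicle 1 and 2 held 273 of 993 and 342 of 1261. Gzma was 24.2, 33.7 and 152 CPM in vehicle and 386, 239 and 391 CPM with the acid, a log2 difference of 2.19 (SE 0.74, edgeR adjusted p = 0.43). Leaving out vehicle 3 put 9 of 9 genes higher with the acid, where 17.7% of 16119 genes were higher, from 2.45 for Prf1 and 2.47 for Ifng to 4.6 for Ccl5 and 5.32 for Gzmk on the log2 scale. With leukocytes alone 0 of 9 genes passed with all libraries in, where 0% of 13755 genes were called. The T cell share of leukocytes was 27.5%, 27.1% and 61.3% with vehicle and 62.4%, 75.8% and 75.8% with the acid, without overlap (exact permutation p = 0.1, the smallest possible, 0.2 adjusted over 8 types).

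Within kidney T cells Gzma was the gene whose groups separated most clearly, and it did not pass the main test. With edgeR 0 of 9 genes passed, and 0% of 11839 genes were called. An unadjusted edgeR p under 0.05 was found for 3 of the 9 and for 489 of the 11839. Gzma was 397, 367 and 368 CPM with vehicle and 795, 489 and 691 CPM with the acid, a log2 difference of 0.94 (SE 0.20, unadjusted p = 0.0016, edgeR adjusted p = 0.997). The groups did not overlap, and of the set DESeq2 called Gzma alone, at 0.92 (adjusted p = 0.0248), where it called 0.118% of all genes. In CD8 T cells Gzma was 415, 868 and 519 CPM with vehicle and 1796, 915 and 1530 CPM with the acid. Ifng was 145, 103 and 29.5 CPM with vehicle and 39.9, 19.6 and 33.5 CPM with the acid, which overlapped. Its log2 difference was -1.31 (SE 0.48, edgeR adjusted p = 0.997). Ccl5 was 9725, 3079 and 7531 CPM with vehicle and 9290, 6196 and 6570 CPM with the acid, which overlapped (log2 difference 0.25, SE 0.39). Nkg7, with 1556, 994 and 1765 against 1861, 1207 and 1102 CPM, overlapped as well (0.07, SE 0.30).

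In kidney NK cells 0 of 8 genes passed, and 0% of 2420 genes were called. An unadjusted edgeR p under 0.05 was found for 1 of the 8, Klrg1, and for 156 of the 2420. DESeq2 also called 0 of 8, and 0% of all genes. Klrg1 was 74.0, 257 and 134 CPM with vehicle and 17.1, 154 and 0 CPM with the acid, a log2 difference of -2.10 (SE 0.77, edgeR adjusted p = 0.67). Gzma was 10641, 12448 and 15008 CPM with vehicle and 15118, 14789 and 7708 CPM with the acid, with a log2 difference of 0.04 (SE 0.31). NK cells were 6.14%, 3.09% and 1.2% of leukocytes with vehicle and 1.80%, 0.955% and 0.749% with the acid.

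**Figure D5:**
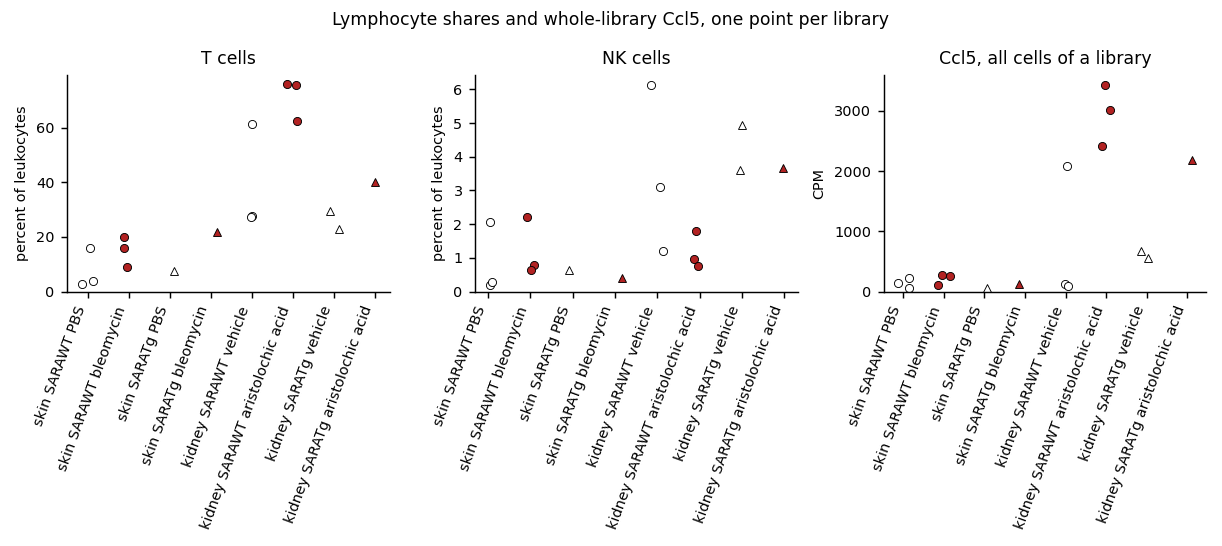
T cells and NK cells as a percent of leukocytes, and the Ccl5 level over all cells in CPM, by group, 1 point per library. The kidney aristolochic acid libraries hold 62.4% to 75.8% T cells, and 1 of the 3 SARAWT vehicle libraries, at 61.3%, lies with them.

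Genes that work with the set were counted from lists. In T cells of the control groups, 4 of 15 other granule and killing genes were higher and 3 lower in skin, where 17.9% of all genes were higher and 18.4% lower. Gzmc, a further granzyme, was 61.5 to 655 CPM in skin and 0 to 3.37 CPM in kidney. Srgn, the proteoglycan that packs granule contents, was 1.92 higher and Xcl1, a chemokine of killer cells, fell by 2.15 on the log2 scale. Of 3 inhibitors of granzymes tested, Serpinb9, which blocks granzyme B, was 1.47 higher and Serpinb6b 2.12 higher in skin, and Serpina3g differed by -3.45. Of 9 transcription factors, 4 were higher (Bhlhe40 by 2.83, Zeb2 by 1.53, Id2 by 0.83 and Runx3 by 0.79) and Eomes, a T-box driver of the program, was lower (-3.16). Tbx21, which encodes T-bet, was 16.6 to 29.5 CPM in skin and 24.4 to 62.7 CPM in kidney and did not pass (log2 difference -0.91, edgeR adjusted p = 0.11). Of 16 surface receptors 4 were higher, led by Il2rb (2.31), a shared chain of the interleukin receptors that sustain NK and memory T cells, and 6 were lower, led by the chemokine receptor Cxcr3 (-3.47). Of 5 receptors and ligands 2 were higher, Ifngr2 (3.74), a chain of the interferon gamma receptor, and Fas (0.96), the receptor of Fas ligand.

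In control NK cells the same lists are given as levels, since the SARAWT skin arm was the 1 library labelled PBS 3. Gzmc was 254 CPM there and 0 in the 3 kidney vehicle libraries. Serpinb9 was 1299 CPM against 296 to 536 CPM, Bhlhe40 328 CPM against 67.9 to 183 CPM and Il2rb 1997 CPM against 467 to 828 CPM. Zeb2, a factor of late NK maturation, was 57.9 CPM against 169 to 537 CPM, and S1pr5, a sphingosine phosphate receptor of mature NK cells, was 2.76 CPM against 81.6 to 142 CPM. These 6 genes were picked from the lists for large folds between this library and kidney. That the first 4 lay above the kidney range and the last 2 below it was thus built into the choice. Other listed genes are not shown. Between treated and control libraries the lists held 0 genes called by edgeR in kidney, and 0 in all cells and T cells of skin.

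The genes most like each member were found from 27 points, each a cell type in a tissue with at least 50 cells, among 11699 genes, by Pearson's r of log2(CPM + 1). The points share libraries, depth and gates, so r is a description. Gzma was closest to Samd3 (0.98), Gm14029 (0.94) and Eomes (0.94), and Prf1 to Samd3 (0.93), Eomes (0.91) and Xcl1 (0.91). Gzmb was closest to Sytl3 (0.96), Klrc1 (0.93) and Gm19585 (0.93). Gzmk was closest to Sh2d1a (0.89), Gm2682 (0.87) and Gm14029 (0.87). Nkg7 was closest to Cd160, Ms4a4b and Ctsw (0.96 each). Ifng and Fasl shared Tbx21 (0.95 and 0.98) and Cd160 (0.95 and 0.97) among their nearest genes, with Sh2d1a (0.93) and Gm33104 (0.95) as the third. Klrg1 was closest to Skap1 (0.92), Sidt1 (0.89) and Cd96 (0.88). Ccl5 had the lowest values of the set, with Gm14029 (0.86), Klrd1 (0.85) and Insl6 (0.84).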

How the data were processed

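PDGFRb+GFP+ cells were profiled with the 10x 3′ v3 protocol, and the authors deposited UMI counts per gene and barcode as Cell Ranger wrote them. Per the file headers Cell Ranger was version 4.0.0 for 4 skin libraries, 3.1.0 for the other 4 and 3.0.2 for the 9 kidney libraries, and per the labels 3.0.2, with Seurat 2.3.4 and mm10. The first 4 were counted on 32286 genes with human ZFYVE9, and the rest on 31053. Libraries held 3355217 to 69765525 UMIs in skin and 28660151 to 137093834 in kidney.

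Barcodes under 200 genes or above 20% mitochondrial UMIs were dropped, and 4711 doublets called by the scrublet method of scanpy 1.11.5, at 0.8% per 1000 cells, were removed. Cells were typed by per-cell marker gates (at least 2 markers). The 9 genes and the lists were chosen with earlier results of these data known. Of the listed companions, up to 5 per direction with the largest fold, past the threshold and at a mean of at least 10 CPM, could be named. For each comparison, UMIs were summed per library and population (at least 10 cells) and tested across all genes by the two-sided quasi-likelihood test of edgeR 4.0.16, after its filterByExpr filter and TMM scaling, with Benjamini-Hochberg adjustment and a threshold of 0.05. Shares of leukocytes were compared by two-sided exact permutation tests. Shares of positive cells were computed after thinning to 1000 UMIs. Limits of a share or level at 0 stand for 3 counts and cover counting error only. Promoters and their matches came from RefSeq, GRCm38.p6. The scripts were tested on simulated data. DESeq2 1.42.0, the replicate block, other filters, gates and depths, and leaving out libraries were the alternatives, and T cells without Trdc, leukocytes alone and leaving out the 4 libraries with doubted labels were added after seeing the data.

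Same-numbered skin bleomycin and PBS libraries deviated together over all cells with r of 0.259, 0.134 and 0.550, and less closely in T cells, with 0.111, 0.043 and 0.269. Over all cells the unlike numbers 1 and 2 gave 0.221 and 0.197, above the pair numbered 2, and number 3 against the others gave -0.414 to -0.280. Numbers 1 and 2 were counted with Cell Ranger 4.0.0 and number 3 with 3.1.0, so number 3 and counting version cannot be told apart. The labels do not say what the numbers stand for.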

Additional observations from a re-analysis of the deposited data

Results flagged for a closer look

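In the treated SARATg libraries, 1 per tissue, the levels listed here were above those of every control library of the same tissue. They were picked for that, and levels below every control library are not listed. With 5, 4 or 2 control libraries, 1 library often lies above all of them by order alone, so nothing is read from their number. There is no replicate and the difference was not tested. In the kidney library labelled SARATg aristolochic acid 1, T cells held 1359 CPM of Gzma, where the highest of 5 control libraries held 623 CPM, and 48.8 CPM of Klrg1, where the highest held 41.5 CPM. NK cells of the same library held 20293 CPM of Gzma (highest control 16686), 1454 CPM of Prf1 (1357), 4754 CPM of Nkg7 (4746) and 30212 CPM of Ccl5 (19632). In the skin library labelled SARATg bleomycin 1, T cells held 441 CPM of Gzmb, where the highest of 4 control libraries held 118 CPM, and 32.4 CPM of Fasl, where the highest held 19.4 CPM. Its NK cells held 582 CPM of Gzmb, where the higher of 2 control libraries held 532 CPM. The kidney library labelled SARATg aristolochic acid 1 held 19.6 CPM of Zfyve9, within the 9.79 to 31.6 CPM of the kidney SARAWT libraries other than the one labelled aristolochic acid 1, so its genotype label is in doubt.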

How the results depend on the processing

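Of 357 values recomputed under alternatives, 314 were labelled the same as the main result. For log2 fold changes this meant that direction and call held. For counts of genes called it meant a count within 1.5 times, so 5 or 7 in place of 6 passed. For shares of leukocytes, 3 libraries against 3 or fewer cannot give an exact permutation p below 0.1. Their call was thus fixed there, and 314 is no measure of how stable the results are. The 6 genes lower in skin T cells were 5 to 7 under every alternative, with Gzmk, which had to differ in the control groups, always among them. Over all cells of skin and kidney controls, where 1 gene was called, DESeq2 and no scaling factors gave 0, the replicate block 3, all 17 libraries 8, all but those with doubted labels 8, the stricter filter on cells 2, leukocytes only 8, and leaving out single libraries 0 to 2. Leaving out single libraries gave 0 to 1 genes for bleomycin and 0 to 9 for aristolochic acid over all cells. For bleomycin in T cells, no filter on low counts gave 3, the replicate block 3 (Gzmb, Nkg7 and Ifng) and the gene list covariate 2. For aristolochic acid DESeq2 gave 1 in T cells and no filter gave 1 in NK cells. In NK cells of skin and kidney, where 2 were called, no filter gave 1, all libraries 6, all but those with doubted labels 5, the stricter filter on cells 4, doublets kept 0 and single libraries 1 to 6. Counts of genes moved over 1.5 times too. Over all cells with bleomycin they were 390 higher and 949 lower by DESeq2, and with aristolochic acid 34 and 35, against 0. The tissue difference in T cell share, -31.1 percentage points, was -36.9 to -19.8 without single libraries, -12.8 as a share of all kept cells and -34.9 with all 17 libraries (exact permutation p = 0.000329). In NK share, -2.62, it was -3.76 to -1.29, -0.158 and -2.00. The NK share with bleomycin was -0.139 points without bleomycin 3 (range -0.139 to 0.967), and with aristolochic acid 0.177 of all kept cells, against -2.31 of leukocytes. The causes were not tested. Of 621 values of genes not called, 42 took the other sign. Outside the bleomycin comparisons, the block added Gzmb to the genes lower in skin T cells and left the counts of aristolochic acid at 0. The gene list covariate outside the bleomycin comparisons, the NK block in tissue and skin comparisons and leaving out skin NK libraries could not be fitted.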
